A study of Bos taurus with 81 samples.

Results

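Bovine embryos of 2 cells (2C) and of 4 cells (4C) were compared for 4 histone marks, H3K4me3, H3K27ac, H3K27me3 and H3K9me3, on autosomes 1 to 29. All libraries of these marks at both stages were taken, which made 16 of the 81 libraries of the series, with 2 libraries per mark and stage. The series profiled oocytes and preimplantation embryos by CUT&Tag, in which an antibody bound to a histone mark directs a transposase to cut and tag the DNA around it. Both groups were untreated embryos produced in vitro from slaughterhouse oocytes and thawed semen, collected at 32 h (2C) and 44 h (4C) after insemination. Their zona pellucida was removed, and cells of many embryos were pooled, about 1000 to 1500 blastomeres per library. Breed, sire and embryo sex were not labelled. Stage identity could not be checked against marker genes, because peak lists without a gene annotation of the same genome build carry no gene names.

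H3K4me3 is laid down mainly at promoters, and H3K27ac marks active promoters and enhancers. H3K27me3 is deposited by Polycomb repressive complex 2 and is linked to silent developmental genes. H3K9me3 is the mark of constitutive heterochromatin, which contains many repeats and transposons. In cattle, the 2-cell and 4-cell stages precede the main wave of embryonic genome activation, and early embryos still carry chromatin marks inherited from the oocyte and sperm.

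Each autosome was cut into bins of 1 kb for H3K4me3 and H3K27ac and of 5 kb for H3K27me3 and H3K9me3, whose peaks are wider. A bin was called marked in a library when peaks covered at least 50% of it. Bins marked in all 4 libraries of a mark were named kept. Lost bins were marked in both 2C libraries and in neither 4C library, and gained bins the reverse. Bins marked in at least 1 library but in none of these classes were named mixed, and bins marked in no library never marked. At least 1 library marked 174315 of 2488115 bins for H3K4me3, 121508 of 2488115 for H3K27ac, 46725 of 497623 for H3K27me3 and 45966 of 497623 for H3K9me3.

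From 2C to 4C, the active marks covered less of the genome and the repressive marks covered more. H3K4me3 peaks covered 113.6 and 111.7 Mb in the 2C libraries and 94.7 and 110.0 Mb in the 4C libraries. H3K27ac covered 55.0 and 67.8 Mb at 2C and 43.4 and 44.0 Mb at 4C. In both active marks the higher 4C library lay below the lower 2C library, although the gap was small for H3K4me3. H3K27me3 covered 110.0 and 131.0 Mb at 2C and 156.8 and 143.2 Mb at 4C. H3K9me3 covered 126.8 and 126.6 Mb at 2C and 163.2 and 177.0 Mb at 4C. In both repressive marks each 4C library lay above each 2C library.

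The log2 ratio of mean log2 covered length, 4C over 2C, was -0.14 for H3K4me3 and -0.48 for H3K27ac, 1.31 and 3.19 times the pooled SD between libraries of a stage. It was 0.32 for H3K27me3 and 0.42 for H3K9me3, 2.257 and 7.25 times that SD. For each single mark the exact two-sided permutation p was 0.33 (adjusted p = 0.33 over the 4 marks), the smallest that 2 libraries against 2 allow. The absolute ratios summed over the 4 marks came to 1.37, with an exact one-sided permutation p of 0.0123 over 1296 arrangements of the labels within marks, again the smallest possible. The repressive pair of marks had a mean log2 ratio of 0.37 and the active pair -0.31. Their difference of 0.68, a 1.61-fold change of the ratio of repressive to active length, had an exact two-sided permutation p of 0.00154, the smallest possible. This grouping of the marks was chosen with earlier results of these data known. Nothing in the labels says whether libraries of a stage came from separate cultures, so these p-values measure only the spread between these libraries.

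**Figure D1:**
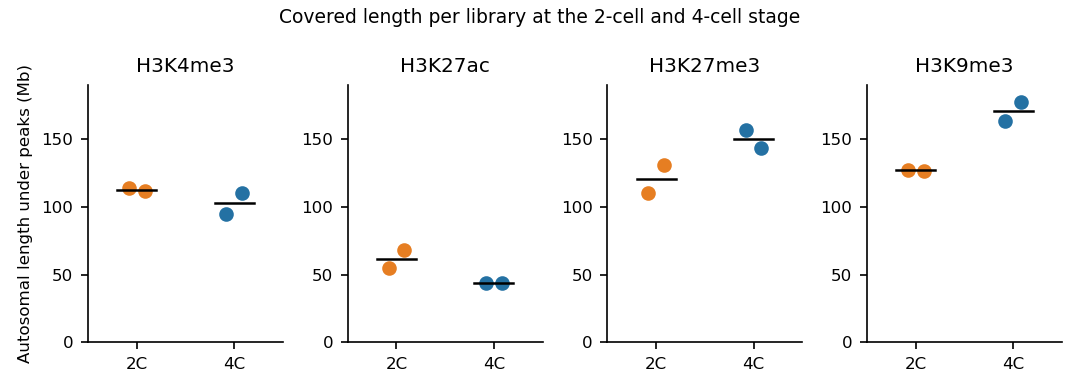
Autosomal length under peaks (Mb) in each library of the 4 marks at the 2-cell (2C) and 4-cell (4C) stage; points are libraries and bars the mean of 2. For H3K4me3 and H3K27ac both 4C points lie below both 2C points, and for H3K27me3 and H3K9me3 above.

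Peak number and width moved apart. H3K27ac had 64570 and 69853 autosomal peaks at 2C and more at 4C, 88062 and 84519, but their median width was 750 and 850 bp at 2C and 450 and 450 bp at 4C. H3K4me3 peaks were also narrower at 4C, with a median of 650 bp in both libraries against 750 bp at 2C, while their number overlapped between stages. H3K27me3 peaks were wider at 4C, at 7800 and 6800 bp against 5200 and 6200 bp, and so were H3K9me3 peaks, at 8000 and 10600 bp against 6600 and 6000 bp. Sequencing depth was unknown. A stand-in for it, the 1st percentile of the deposited score per kb of peak, was 40 and 41.7 at 2C and 55.6 and 56.7 at 4C for H3K27ac. It was higher at 4C for H3K27me3 (11.3 and 10.6 against 9.59 and 10.1) and for H3K9me3 (10.98 and 12.3 against 10.2 and 10.0), and overlapped for H3K4me3. Its part in the changes of covered length was not tested.

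In the lists as deposited, loss of bins present at 2C was rarest for H3K9me3 and most frequent for H3K27ac. Of the bins that H3K9me3 marked in both 2C libraries, 2.59% were lost, against 9.63% for H3K4me3, 14.6% for H3K27me3 and 52.6% for H3K27ac. On 5 kb bins the H3K4me3 and H3K27ac shares were 16.1 and 58.1%, by a looser rule. An active mark then counted as lost when any 1 kb bin inside was lost and none gained. These shares therefore cannot be ranked against those of the repressive marks, which were called by coverage of the whole bin. Called by that coverage, 5 kb bins of H3K4me3 comprised 963 lost and 6934 kept, and those of H3K27ac 1153 lost and 218 kept. Counted back from 4C, H3K4me3 had the lowest share of gained bins, 4.70% of the bins marked in both 4C libraries, against 16.0% for H3K9me3, 22.3% for H3K27me3 and 23.2% for H3K27ac. For H3K4me3 the bins comprised 60500 kept, 8244 lost (0.331% of all bins) and 3551 gained (0.143%). H3K27ac had 6738 kept, 15668 lost (0.63%) and 3455 gained (0.139%). H3K27me3 had 13207 kept, 2563 lost (0.515%) and 5285 gained (1.06%). H3K9me3 had 17618 kept, 506 lost (0.102%) and 4461 gained (0.896%). Mixed bins were the largest class of every mark, from 23381 for H3K9me3 to 102020 for H3K4me3. Omission of any library raised the counts of lost and gained bins, because fewer libraries then had to agree, at most to 49074 lost H3K27ac bins without 2C replicate 1 and to 17013 gained H3K4me3 bins without 4C replicate 1.

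**Figure D2:**
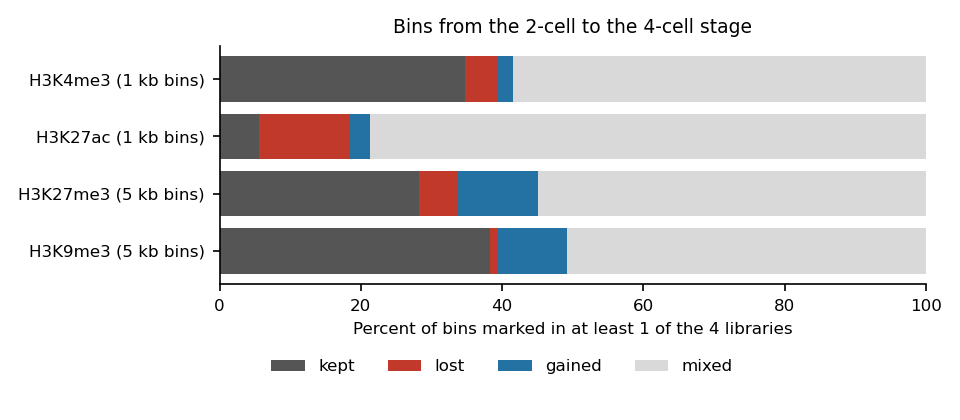
Kept, lost, gained and mixed bins of each mark as a percentage of the bins marked in at least 1 of its 4 libraries. Lost bins are the widest coloured block for H3K27ac, gained bins for H3K27me3 and H3K9me3.

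These counts have to be read against the disagreement of libraries of one stage. For a pair of H3K9me3 libraries, 13.7 to 16.3% of the bins marked in a 2C library were unmarked in a 4C library and 34.9 to 38.2% the reverse, against 17.0 to 25.1% between libraries of one stage. H3K27ac bins of a 2C library were unmarked in a 4C library in 74.1 to 78.1% of cases, above the 48.8 to 58.8% within stages. The reverse, 49.6 to 55.5%, lay inside the range within stages, so H3K27ac gains did not exceed the disagreement of libraries of one stage. For H3K4me3 the values between stages, 28.9 to 35.9% and 20.2 to 26.5%, overlapped the 21.1 to 32.8% within stages. The H3K27me3 values were 27.4 to 31.0% and 36.7 to 50.6% between stages and 19.7 to 34.7% within. For both repressive marks, losses thus did not exceed the disagreement of libraries of one stage, while gains did.

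The direction of the counts also depended on the total length of the lists. When the 4 lists of a mark were shortened to the length of the shortest, the lost share of lost and gained bins went from 81.9 to 67.0% for H3K27ac and from 69.9 to 52.7% for H3K4me3. It went from 32.7 to 51.6% for H3K27me3 and from 10.2 to 46.0% for H3K9me3. At equal list length, losses still outnumbered gains for H3K27ac, while the other marks came close to balance. Relative to kept bins, H3K9me3 losses were then no longer rarer than those of H3K4me3. H3K9me3 had 1685 lost and 15495 kept bins there, and H3K4me3 had 5068 lost and 54276 kept. When any covered base marked a bin, the share was 50.7% for H3K27ac, 60.1% for H3K4me3, 41.8% for H3K27me3 and 17.6% for H3K9me3. H3K27ac losses and gains were thus about equal in number on that rule. On the rule of 50%, 40.4 and 40.3% of the H3K27ac bins marked at 4C were 50 to 60% covered, just inside the limit, against 24.0 and 19.4% at 2C.

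The changed bins lay in lower-scoring peaks than kept bins, and in marks other than H3K27ac lost bins were more often isolated. Single bins made up 92.9% of lost H3K4me3 bins, 75.7% of lost H3K27ac bins, 71.9% of lost H3K27me3 bins and 86.8% of lost H3K9me3 bins. In kept bins the shares were 34.8, 77.1, 26.9 and 19.8% in the same order, and in gained bins 96.5, 92.4, 64.3 and 63.4%. The median percentile of the deposited score within its own 2C list was 57.0 and 56.1 for peaks in lost H3K4me3 bins and 88.7 and 87.8 in kept ones. For H3K9me3 it was 38.1 and 37.4 in lost bins and 85.6 and 86.0 in kept bins, and for H3K27me3 55.7 and 50.6 against 86.0 and 88.0. H3K27ac lost bins ranked highest, at 71.7 and 74.1, closer to their kept bins at 86.5 and 86.3. Of lost bins, 79.0% for H3K27me3, 65.8% for H3K9me3 and 52.9% for H3K27ac had no covered base left in either 4C library, but only 25.1% for H3K4me3. In 39.5% of lost H3K4me3 bins at least 1 library of 4C covered 40 to 50% of the bin, just under the limit of 50%.

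H3K27me3 bins with H3K9me3 at 2C nearly all persisted at 4C, and most of those without it did not. H3K27me3 marked both 2C libraries in 10764 bins that also carried H3K9me3 in both 2C libraries. Of these bins, 96.7% were kept and 37, or 0.344%, were lost at 4C. In 4692 other H3K27me3 bins neither 2C library had H3K9me3, and of these 25.7% were kept and 2417, or 51.5%, were lost (14.6% of all H3K27me3 bins of 2C were lost). Leaving out 1 library at a time moved these lost shares between 0.344 and 2.258% with H3K9me3 and between 42.4 and 63.7% without, both highest without H3K27me3 4C replicate 1. The split also appeared at the 8-cell stage (8C), whose libraries were not used to choose the bins. H3K27me3 marked 93.9 and 93.9% of the bins with H3K9me3 at 2C in the 8C libraries, and 28.1 and 28.4% of those without.

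Bins with both repressive marks also had higher-scoring H3K27me3 peaks, with median percentiles of 87.8 and 89.95 against 64.5 and 60.2 without H3K9me3. The bins were therefore divided into 4 classes by the lower of their score percentiles in the 2C lists, a division chosen after the values were seen. At percentiles of 25 or less, 1.95% of 512 bins with H3K9me3 and 70.4% of 947 bins without it were lost. Above percentile 75 the shares were 0.0872% of 6882 and 25.8% of 1067. Loss was thus rarer at high scores, and in all 4 classes it was more frequent without H3K9me3.

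Oocyte H3K27me3 had the opposite relation. Germinal vesicle oocytes (GV) had H3K27me3 in 70.8 and 75.2% of the 2C bins that lacked H3K9me3, and in 29.8 and 32.6% of those that carried it. Among bins without H3K9me3 at 2C, 47.0% of the 3072 marked by H3K27me3 in both GV libraries were lost, and 55.3% of the 914 marked in neither. With H3K9me3 the shares were 0.176% of 2838 and 0.407% of 6884. Within each H3K9me3 class, loss was thus less frequent in bins marked in the oocyte. It differed far less by the oocyte state than between the classes.

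Gains of H3K27me3 were concentrated in H3K9me3 sequence as well. Of the 5285 gained bins, H3K9me3 was mixed in 2192 (41.5%), kept in 2114, gained in 599 (11.3%), never marked in 353 (6.68%) and lost in 27. Where H3K9me3 was kept and H3K27me3 was in neither 2C library, 59.5% of 3550 bins gained H3K27me3 (1.13% of all bins without H3K27me3 at 2C gained it). Where H3K9me3 was never marked, 0.0799% of 441991 bins did. Without 1 library at a time these shares were 51.2 to 77.0% and 0.0900 to 0.477%, the latter highest without H3K27me3 4C replicate 2. In lists of equal length the first was 47.4%. In the other direction, H3K9me3 was gained about as often where H3K27me3 was gained as where it was kept, in 42.1% of 1424 and 41.3% of 1207 bins. The first share was 25.9% when H3K27me3 4C replicate 1 was left out, 26.5% without replicate 2 and at most 60.6% without another library. It was gained in 0.285% of 445183 bins where H3K27me3 was never marked, and in 1.04% without H3K9me3 4C replicate 1 (0.959% of all bins without H3K9me3 at 2C).

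The repressive marks overlapped more at 4C than at 2C. H3K9me3 also marked 57.2 to 59.1% of the H3K27me3 bins over the pairs of libraries at 2C and 78.3 to 81.2% at 4C. Of H3K9me3 bins, H3K27me3 marked 49.0 to 61.1% at 2C and 66.1 to 74.98% at 4C. Neither range overlapped between stages. Each mark by itself also marked more of all 5 kb bins at 4C. H3K9me3 went from 5.24 and 5.22% to 6.75 and 7.27%, and H3K27me3 from 4.49 and 5.39% to 6.46 and 5.92%. Longer lists raise such shares by construction. The overlap was not recounted in lists of equal length, so the part of list length in it was not tested.

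**Figure D3:**
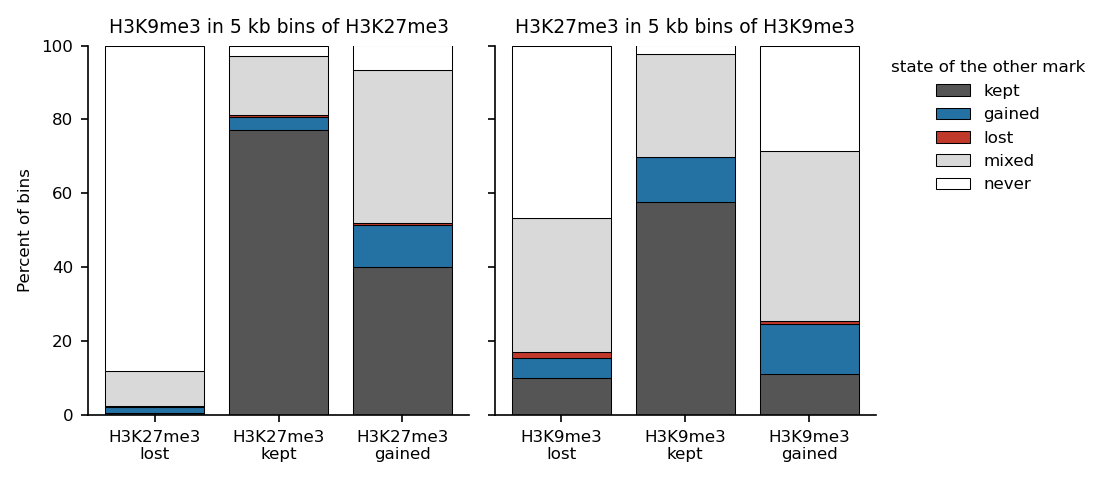
State of H3K9me3 in the lost, kept and gained 5 kb bins of H3K27me3 (left) and of H3K27me3 in those of H3K9me3 (right), as a percentage of bins. H3K9me3 was never marked in 88.2% of lost H3K27me3 bins and was kept in 77.0% of kept ones.

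Named regions show these patterns. They were the longest runs of adjacent lost or gained bins, with the percentage of the run under peaks given for each library. The longest H3K27me3 loss was 40 kb at chr29:5710001-5750000, where coverage was 81.0 and 80.5% at 2C and 5.5 and 0% at 4C. H3K9me3 covered at most 10.0% of it at these stages. H3K27ac covered none of it at 2C, 20.2 and 15.8% at 4C, and 39.2 and 39.0% at 8C. At chr7:10175001-10200000, H3K27me3 covered 67.2 and 73.6% in GV, 83.2 and 80.0% at 2C and 0% from 4C to 8C, and no other mark covered any of it at 2C or 4C. At chr14:13595001-13620000 H3K27me3 covered 92.8 and 85.6% at 2C and 0% at 4C, and H3K27ac was also lower, at 61.8 and 60.4% against 28.8 and 34.4%.

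Among the longest H3K27me3 gains, chr5:114270001-114295000 was 1.6 and 1.6% covered at 2C and 81.6 and 80.0% at 4C. H3K9me3 there was 3.2 and 24.8% at 2C and 92.8 and 89.6% at 4C, so both repressive marks were higher together, and both stayed above 70% at 8C. At chr15:28035001-28060000 H3K9me3 was already present, at 81.6 and 92.8% at 2C, where H3K27me3 went from 12.8 and 0% to 92.0 and 84.8%. The longest run in which both marks were gained, chr3:114880001-114895000, went from 4.0 and 10.7% to 88.0 and 81.3% for H3K27me3 and from 20.0 and 0% to 73.3 and 92.0% for H3K9me3.

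H3K9me3 gains were also found in sequence with H3K4me3. H3K9me3 was gained in 3.27% of 43678 bins with H3K4me3 in both 2C libraries and in 0.666% of 396189 bins without. Over all bins without H3K9me3 at 2C the share was 0.959%. Without 1 library the ranges were 2.87 to 5.28% and 0.666 to 1.69%. The longest H3K9me3 gain, 35 kb at chr21:69030001-69065000, was 0% covered in GV and 2C and 93.7 and 89.1% covered at 4C. There H3K4me3 covered 69.7 to 74.1% in all libraries of 2C and 4C. The same held at chr11:104385001-104415000, where H3K9me3 was 5.33 and 8.0% at 2C and 86.7 and 96.0% at 4C beside H3K4me3 of 66.2 to 70.2%. Both runs also carried H3K27me3, which covered 100% of each in both GV libraries. On chr21 it covered 46.3 and 56.6% at 2C and 64.0 and 49.1% at 4C. On chr11 it covered 26.7 and 78.0% at 2C and 76.7 and 54.0% at 4C. Among the few H3K9me3 losses, chr2:195001-215000 went from 88.0 and 95.0% to 0% at 4C, and was 100% covered in both 8C libraries. H3K27me3 covered 81.0% or more of this region at both stages.

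Each active mark was lost less often where the other was kept, and few bins were called lost for both. Of 15668 lost H3K27ac bins, 6841 lay in bins where H3K4me3 was kept and 546 where it was lost. H3K4me3 was mixed in 5403 and never marked in 2686 of them. Of 8244 lost H3K4me3 bins, 4910 were never marked by H3K27ac and so had none to lose. Where lost H3K4me3 bins had H3K27ac in both 2C libraries, 546 of 805 (67.8%) lost it too. H3K27ac was lost in 41.6% of 16459 bins with kept H3K4me3 and in 77.1% of 3483 bins without H3K4me3 in any library, set against 52.6% overall. Leaving out 1 library at a time gave 42.1 to 56.1% and 74.99 to 87.3%. H3K4me3 was lost in 1.64% of 5670 bins with kept H3K27ac and in 14.7% of 33353 bins never marked by H3K27ac, with ranges of 1.85 to 7.05% and 13.5 to 31.8% without 1 library. The highest values came without H3K4me3 4C replicate 2 and 2C replicate 1, respectively, and omission of any H3K4me3 library moved both shares by over 1.5 times. Counted from the state at 2C alone, H3K27ac was kept in 28.5% of 19886 bins with H3K4me3 in both libraries and in 7.99% of 4829 with none. H3K4me3 was kept in 82.8% of those 19886 bins and in 62.8% of 39411 bins without H3K27ac. Without 1 library the H3K27ac shares were 20.8 to 42.6% and 3.58 to 18.3%, both lowest without H3K27ac 2C replicate 1 and highest without H3K27ac 4C replicate 1, and omission of any H3K27ac library moved the second by over 1.5 times. The H3K4me3 shares were 76.4 to 91.5% and 45.05 to 77.8%, which overlapped.

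The longest loss of H3K27ac shows the mark leaving a stretch that kept H3K4me3. At chr5:119337001-119347000 H3K27ac covered 90.0 and 94.5% at 2C and 14.5 and 9.0% at 4C, while H3K4me3 covered 96.5 to 100% throughout. H3K9me3 went from 0% in both 2C libraries to 64.0 and 84.0% there. At chr29:49377001-49386000 H3K27ac went from 83.9 and 85.0% to 11.7 and 0%, beside H3K4me3 of at least 85.6% and with no H3K9me3 or H3K27me3 at either stage. The next longest run, chr11:103379001-103386000, went from 80.7 and 82.9% to 8.57 and 0%. In all 3 runs the GV libraries had at most 12.1% H3K27ac and at least 71.4% H3K27me3, whereas 2C had no H3K27me3.

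Loss of H3K27ac was more frequent in bins with H3K9me3, whether that mark was gained or already there. Among 5 kb bins with H3K27ac in both 2C libraries, 81.0% of 463 with gained and 78.0% of 536 with kept H3K9me3 lost H3K27ac, against 56.2% of 20027 without H3K9me3 in any library and 58.1% overall. For gained and never-marked H3K9me3 the ranges without 1 library were 78.0 to 89.8% and 56.2 to 72.1%, and in lists of equal length the values were 76.5 and 50.2%. H3K27me3 at 2C had a relation of the same direction, with H3K27ac lost in 72.7% of 802 bins marked by H3K27me3 and 57.0% of 20610 unmarked ones. Without 1 library these shares were 72.7 to 88.2% and 57.0 to 72.9%, which overlapped. Both were highest without H3K27ac 2C replicate 1.

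Loss of H3K27me3 was less frequent in bins with H3K4me3. It was lost in 7.74% of 2945 bins with H3K4me3 in both 2C libraries and in 16.4% of 13291 without, with ranges of 7.74 to 14.4% and 16.2 to 27.2% when 1 library was left out. Omission of any H3K27me3 library moved the first share by over 1.5 times, up to 14.4% without 4C replicate 1, and omission of H3K27me3 2C replicate 2 moved the second, to 27.2%. H3K4me3 in turn was lost in 17.1% of 2945 bins with H3K27me3 in both 2C libraries and in 15.9% of 42487 without, near the 16.1% of all its 5 kb bins of 2C, with ranges of 17.1 to 37.8% and 15.9 to 34.0% that overlapped and were set by the H3K4me3 libraries. H3K4me3 was gained in 1.76% of 16811 bins with H3K27me3 and 0.608% of 462798 without, and H3K27me3 in 1.84% of 42487 bins with H3K4me3 and 1.04% of 398700 without. The ranges were 1.52 to 6.92% and 0.608 to 2.67% for H3K4me3, highest without H3K4me3 4C replicate 1, and 1.70 to 4.18% and 1.04 to 2.13% for H3K27me3, highest without H3K27me3 4C replicate 2. The longest H3K4me3 losses were 3 kb, among them chr3:92945001-92948000, where H3K4me3 went from 80.0 and 80.0% to 26.7 and 30.0%. There H3K27me3 went from 13.3 and 0% to 100 and 100%. The other 2 named losses, chr1:81693001-81696000 and chr1:148977001-148980000, had no H3K27me3 or H3K9me3 at 2C or 4C. More runs of lost H3K4me3 bins reached 3 kb, and the named ones came first by chromosome and start. The longest H3K4me3 gains lay in H3K9me3 sequence: chr7:17025001-17028000 went from 0 and 16.7% to 90.0 and 90.0% H3K4me3 while H3K9me3 covered 100% in every library.

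Most bins called lost or gained were so called for 1 mark only. On 5 kb bins, where an active mark was lost when at least 1 of its 1 kb bins was lost and none gained, 35693 bins changed in at least 1 mark. The shares of all 5 kb bins lost and gained by this rule were 1.53 and 0.659% for H3K4me3 and 2.58 and 0.63% for H3K27ac. Of the 35693 changed bins, 31926 (89.4%) changed in 1 mark, 3574 (10.0%) in 2 marks, 187 in 3 and 6 in all 4. A bin that was mixed for a further mark counted as unchanged in it, which raises the share with 1 mark. H3K9me3 was mixed in 41.5% of gained H3K27me3 bins, and H3K27me3 in 46.0% of gained H3K9me3 bins. The commonest pair was loss of both H3K4me3 and H3K27ac, in 1338 bins against 191 from the product of the 2 marks' shares of all bins. Opposite changes of these 2 marks also exceeded the product, with H3K4me3 gained and H3K27ac lost in 466 bins against 82.3 and the reverse in 168 against 46.7. Gain of both repressive marks followed with 485 bins against 44.9. Loss of H3K27ac with gain of both repressive marks was found in 61 bins against 1.19. Bins marked by anything are more alike than bins drawn from the whole genome, so these products are a reference and not a test. Loss of H3K27ac with gain of H3K27me3 alone, at 114 bins against 132, did not exceed it.

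The bins were then read in libraries of other stages, which had no part in choosing them. Most lost H3K27me3 bins had been marked in the oocyte and few were marked later, with 63.8 and 70.6% in GV and 10.4 and 9.56% at 8C. Gained H3K27me3 bins had the reverse course, with 12.4 and 11.1% in GV and 58.6 and 60.8% at 8C. Bins never marked at 2C or 4C were H3K27me3-marked in 7.63 and 7.51% in GV and 0.864 and 0.887% at 8C. Only 1211 lost bins (47.2%) were marked in both GV and neither 8C library, and 2148 gained bins (40.6%) in neither GV and both 8C. By the morula, gained bins were down to 17.6 and 16.6% and lost bins stood at 14.4 and 13.8%. The high share of lost bins marked in GV was taken over all bins. Within each H3K9me3 class of 2C, as given above, oocyte-marked bins were lost less often.

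Part of the bins called lost for H3K9me3 were marked at 8C. They were marked in 57.9 and 59.1% in GV, below the 81.0 and 81.6% of kept bins, and in 38.7 and 39.3% at 8C. Over all bins these shares were 7.75 and 7.65% in GV and 6.95 and 6.88% at 8C. As given above, H3K9me3 losses did not exceed the disagreement of libraries of one stage, so a loss followed by regain was not shown. Gained bins stood at 31.1 and 33.0% in GV and 67.9 and 65.8% at 8C. Kept bins were present in 95.7 and 96.4% at 8C and in 20.3 and 25.5% in morulae. In morulae, blastocysts and both parts of the blastocyst, the inner cell mass and the trophectoderm, each library marked more of the gained bins than of the kept bins, for example 39.5 and 38.9% against 28.8 and 28.3% in trophectoderm.

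Lost H3K4me3 bins were marked in 61.1 and 73.8% in GV and 13.6 and 36.3% at 8C. Kept H3K4me3 bins stood above them in GV, at 84.2 and 89.9% (5.82 and 7.47% over all bins), whereas kept H3K27me3 bins stood below lost ones there, at 38.2 and 40.6% (9.78 and 9.80% over all bins). Gained H3K4me3 bins were marked in 41.7 and 51.7% in GV and 25.3 and 54.0% at 8C, above lost bins in each 8C library. Each library of the later groups likewise marked more of the gained than of the lost H3K4me3 bins. The 8C replicates of H3K4me3 differed, with kept bins marked in 70.9 and 90.6% of cases.

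For H3K27ac the 8-cell embryos grown with the RNA polymerase II inhibitor α-amanitin (50 μg/ml, 8A) differed from untreated ones. Of lost H3K27ac bins, 15.7 and 14.0% were marked at 8C but 44.1 and 46.2% in 8A. Kept bins were marked in 59.97 and 59.7% at 8C and 95.4 and 94.9% in 8A, and gained bins in 58.5 and 60.3% against 80.9 and 80.1%. Never-marked bins went the other way, at 2.71 and 2.67% against 1.64 and 1.86%. The 8A libraries lay above both 8C libraries in all 3 classes, but 2 against 2 libraries cannot give an exact permutation p below 0.33. The 3 longest H3K27ac losses were covered to 55.0% or more in each 8A library and to at most 10.5% at 8C.

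**Figure D4:**
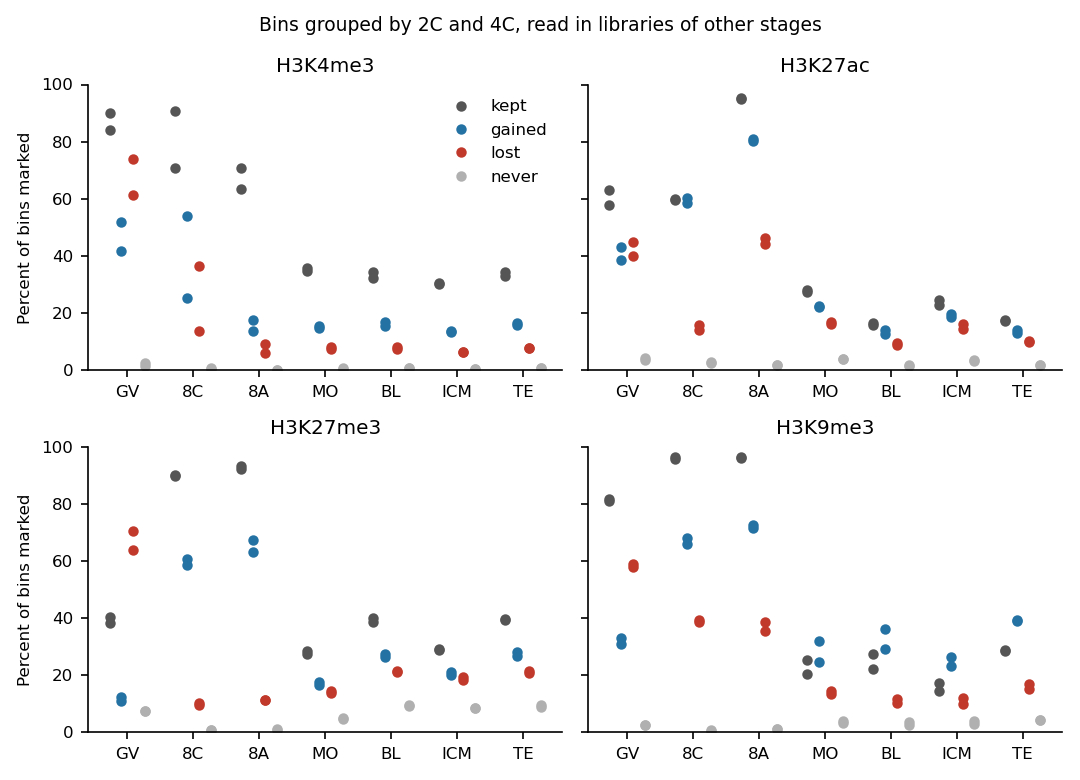
Percentage of kept, gained, lost and never-marked bins of each mark that were marked in each library of 7 other groups (GV, oocyte; 8C; 8A, 8C with α-amanitin; MO, morula; BL, blastocyst; ICM and TE, its inner cell mass and trophectoderm). Lost H3K27me3 bins are high in GV and low at 8C, and gained bins the reverse.

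The balance of gained and lost bins had the same direction on nearly all autosomes, which were read from the same libraries and are not replicates of each other. Gained minus lost bins, as a percentage of the bins of an autosome, were below 0 on all 29 autosomes for H3K4me3 (-0.42 to -0.08) and H3K27ac (-1.80 to -0.14). They were above 0 on all 29 for H3K9me3 (0.40 to 1.66) and on 28 for H3K27me3, the exception being chromosome 2 at -0.13. Autosomes 19 and 25 had the lowest H3K27ac values (-1.80 and -1.77), and autosomes 25 and 18 the highest for H3K27me3 (1.79 and 1.54) and H3K9me3 (1.66 and 1.37). Autosome 9 was among the 3 autosomes with the smallest net change for all 4 marks. Covered length was less uniform. On autosome 9, H3K27ac peaks covered 1.29 and 1.47% at 2C and 1.48 and 1.47% at 4C. The stages also overlapped in covered length on some autosomes for H3K4me3, such as 12, and for H3K27me3, such as 2. For H3K9me3 each 4C library covered more than both 2C libraries on all 29. In shortened lists the balance of gains and losses differed as given above, and the autosomes were not recounted there.

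**Figure D5:**
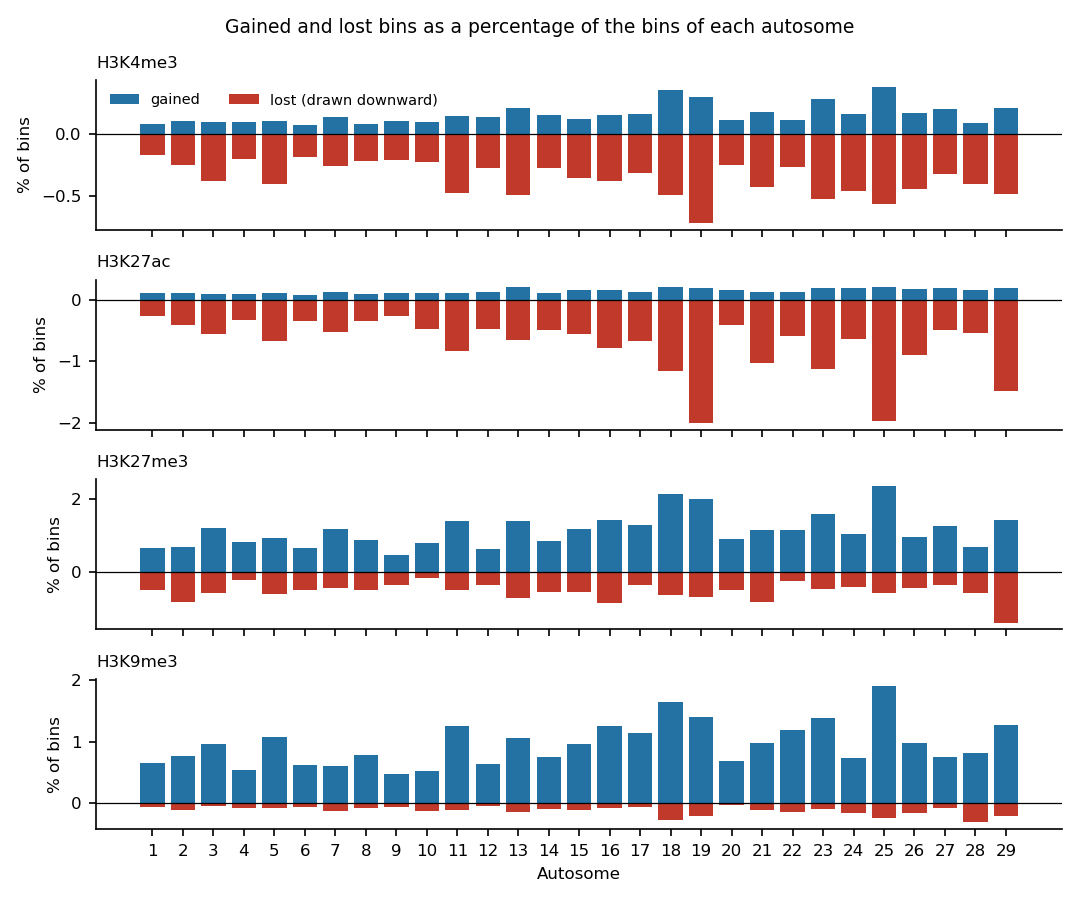
Gained (upward) and lost (downward) bins of each mark as a percentage of the bins of each of the 29 autosomes. H3K27ac losses are deepest on autosomes 19 and 25, and gains of both repressive marks highest on autosome 25.

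Position along the chromosome also differed between classes. The last 2 Mb of the autosomes held 2.33% of all bins, but 13.9% of gained and 11.5% of kept H3K9me3 bins and 2.17% of lost ones. For H3K27me3 the shares were 9.31% of gained, 12.8% of kept and 1.76% of lost bins. H3K27ac had the opposite order, with 11.7% of lost and 6.34% of gained bins there, and H3K4me3 had 5.90% of lost and 12.3% of gained bins. Gained bins lay next to a kept bin of the same mark in 36.7% of cases for H3K9me3, 31.7% for H3K4me3, 26.4% for H3K27me3 and 6.11% for H3K27ac.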

How the data were processed

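CUT&Tag peak lists of 72 libraries were read, and the 16 lists of 2C and 4C were compared. The authors deposited 1 list per library with a whole-number score per peak, whose meaning the deposited lists do not give. Per the submitters' processing notes, reads were handled with BWA 0.7.9a, SAMtools 1.9, Picard 2.26.10, cutadapt 1.8.3 and Trim Galore 0.4.0, SICER was used, and the build was ARS-UCD1.2. The lists are named for epic2, so the caller was not settled. For the cutoff, control libraries and duplicate handling the sources used here give nothing. Peak edges lay on a 50 bp grid for the active and a 200 bp grid for the repressive marks, and neighbouring peaks were at least 100 and 1200 bp apart. Deposited ends were taken as the last base covered. Chromosome length was the highest peak end over the 72 lists, which gave 2488 Mb of autosomes. Depth was unknown, so no intervals are given.

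Bins, classes and coverage were computed in Python (3.11.15) using pandas 2.3.3 and NumPy 2.4.6, and the code was checked on simulated data. Covered length was tested by exact permutation within marks, with Benjamini-Hochberg adjustment over 4 marks. Named regions were the 3 longest runs of lost and of gained bins per mark, the longest run per joint change, and the 3 autosomes at either end. Runs of equal length were taken in order of chromosome and start. The bins, tests and rules were chosen with earlier results of these data known. Promoters of a planned gene list were left out for lack of an annotation of that build. Alternatives were any covered base, the other bin size, omission of the lowest-scoring 25% of peaks, lists of equal length (lowest score per base removed first), X and scaffolds added, omission of each library, and replicate number as a block.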

Additional observations from a re-analysis of the deposited data

Results flagged for a closer look

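The change of covered length from 2C to 4C differed between the pairs of marks: the mean log2 ratio of H3K27me3 and H3K9me3 minus that of H3K4me3 and H3K27ac was 0.68 (exact two-sided permutation test of the difference, p = 0.00154, the smallest the design allows). The repressive mean was 0.37 and the active mean -0.31. The contrast was chosen with earlier results of these data known. Without 1 library at a time the difference was 0.61 to 0.76, with exact permutation p from 0.00154 to 0.00617. The depth stand-in was higher at 4C in H3K27ac, H3K27me3 and H3K9me3, and its part in the difference was not tested.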

How the results depend on the processing

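Without the lowest-scoring 25% of peaks, and with X and scaffolds added, each covered-length ratio kept its direction and each count of lost and gained bins stayed within 1.5 times its value. The other bin size gave 963 lost and 258 gained H3K4me3 bins, with 6934 kept, 1153 lost and 121 gained for H3K27ac with 218 kept, 12919 lost and 25738 gained for H3K27me3 with 62374 kept, and 2721 lost and 22015 gained for H3K9me3 with 82871 kept. With any covered base, counts moved to 4807 lost and 21115 kept for H3K27me3, 964 lost for H3K9me3, 6822 gained and 118599 kept for H3K4me3, and 20978 gained and 25416 kept for H3K27ac. Lists of equal length gave 5068 lost H3K4me3, 9303 lost H3K27ac and 1685 lost H3K9me3 bins, and 2847 gained H3K27me3 and 1982 gained H3K9me3 bins. Bin size and list length change these counts by construction.

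With any covered base, H3K27me3 was lost in 65.0% of bins never marked by H3K9me3. H3K27ac was then lost in 26.6% of bins with kept H3K4me3, 60.7% with none, 64.9% with gained H3K9me3 and 39.8% with none. In lists of equal length the same shares were 75.8, 36.3, 69.4, 76.5 and 50.2%, H3K27me3 was gained in 47.4% of bins with kept H3K9me3, and H3K4me3 was lost in 10.4% of bins never marked by H3K27ac. The order within each pair of shares was the same in all of these.

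Leaving out 1 library, so that fewer libraries had to agree, raised the counts. In the order H3K4me3, H3K27ac, H3K27me3 and H3K9me3, lost bins then numbered 14214 to 25272, 19039 to 49074, 3299 to 5929 and 1059 to 2307. Gained bins numbered 8841 to 17013, 5399 to 12652, 6434 to 11021 and 7304 to 9762 in the same order, and kept bins 65790 to 71382, 8682 to 10752, 13943 to 17254 and 18171 to 20567. The log2 ratios ranged from -0.25 to -0.03, -0.63 to -0.33, 0.19 to 0.45 and 0.37 to 0.48, and their summed size from 1.22 to 1.52 (exact permutation p from 0.0123 to 0.0494).

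The shares of one mark's change in bins of another had these ranges without 1 library. H3K27me3 was lost in 0.189 to 1.77% of bins with kept and 62.3 to 78.0% with no H3K9me3, and gained in 51.2 to 77.0% and 0.0900 to 0.477%. H3K4me3 was lost in 1.85 to 7.05% of bins with kept and 13.5 to 31.8% with no H3K27ac. H3K27ac was lost in 42.1 to 56.1% of bins with kept and 74.99 to 87.3% with no H3K4me3, and in 78.0 to 89.8% with gained and 56.2 to 72.1% with no H3K9me3. H3K9me3 was gained in 25.9 to 60.6% of bins with gained and 0.291 to 1.04% with no H3K27me3.

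The labels number the libraries alike at both stages without saying that the numbers pair them. Deviations of same-numbered libraries correlated across bins at -0.0134 to 6.95e-05. With 2 libraries per mark and stage, these values cannot settle whether same-numbered libraries had a common origin. With the replicate number as a block the summed size was 1.37 with an exact sign-flip p of 0.0625, the smallest that this test allows. It could therefore not fall under 0.05. The difference of repressive and active marks had p = 0.00781 by the same exact sign-flip test, also the smallest possible.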

Other observations

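On the X chromosome H3K27me3 went against the autosomes. It covered 5.77 and 6.33 Mb of X at 2C and 3.80 and 3.38 Mb at 4C, a log2 ratio of -0.75 against 0.32 on the autosomes. Of 786 X bins marked in both 2C libraries, 44.3% were lost, and X had 348 lost, 94 gained and 315 kept bins. The lost bins were marked in 64.9 and 75.3% of cases in GV oocytes and in 9.77 and 10.6% at 8C. GV oocytes had 10.04 and 11.7 Mb of H3K27me3 on X, 8C embryos 4.36 and 4.83 Mb and 8A embryos 2.97 and 3.16 Mb. The contrast of X and autosomes was not tested. H3K9me3 on X had the direction of the autosomes, with 3.52 and 3.27 Mb at 2C and 4.06 and 4.28 Mb at 4C. On 1557 unplaced scaffolds H3K9me3 covered 8.24 and 6.53 Mb at 2C and 7.15 and 6.33 Mb at 4C, so that the stages overlapped.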
